A study of Mus musculus with 20 samples.

Results

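The genes described here encode the enzymes and helper proteins that make coenzyme Q (CoQ) in mitochondria: Pdss1, Coq2, Coq3, Coq4, Coq5, Coq6, Coq7, Coq8a, Coq9 and Coq10b. Members were all array probes whose platform annotation carried 1 of these 10 symbols. That gave 20 probes of 9 genes, out of 45281 probes and 19057 named genes on the array. Pdss1 had no probe under its symbol, so its expression was not analysed here. A probe was tested if its signal was detected (detection p under 0.05) in at least 5 of 20 livers, which kept 15 member probes of 8 genes among 15096 probes of 9262 genes.

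CoQ is a lipid that carries electrons from several dehydrogenases to complex III of the respiratory chain and that also acts as an antioxidant. Its synthesis joins an isoprenoid tail, made by the PDSS1 and PDSS2 subunits, to an aromatic ring, and COQ2 performs that attachment. The ring is then decarboxylated, hydroxylated and methylated by COQ3, COQ4, COQ5, COQ6 and COQ7, which act in a membrane-bound assembly that also holds COQ9. COQ8A, an atypical kinase-like protein, supports the assembly, and COQ10B is a lipid-binding protein needed for CoQ to work in respiration.

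The livers came from female B6 mice in 4 groups of 5, with 1 Illumina Mouse WG-6 v2.0 BeadChip array per liver. The first 3 groups carried 2 copies of kd, a missense allele of Pdss2, in the 13th backcross generation to B6, and the last was wild type. One mutant group was untreated (129 to 143 days old). Another was labelled as fed chow with 1% (w/w) probucol, a lipid-lowering antioxidant, estimated by the submitters at 95 mg per kg body weight per day (140 to 145 days). The last mutant group was given CoQ10, the CoQ form with a longer tail than the main mouse form, at 1 mg/ml, estimated at 400 mg per kg per day (153 to 156 days). Wild-type mice were untreated and 215 to 217 days old, so age and genotype cannot be told apart. The CoQ10 group was also older than the other mutants.

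For 10 livers the treatment label and the array name disagree on whether the mouse was untreated or fed probucol. Urine albumin in the same label records was 0.84 to 1.86 mg per 24 h in probucol-labelled mice, against 13.52 to 57.34 in untreated-labelled mice, and nephritis scores were 0 to 3 against 2 to 4. These records follow the treatment label but do not show which array holds which liver. The treatment label was kept throughout, and each value of either group holds for livers as so labelled. The mean of all mutants against wild type, and CoQ10 against the mean of the other 2 mutant groups, do not depend on which label is right. No probe was named Pdss2, and a missense allele need not alter its transcript level, so the genotype was not checked from expression. Of 8 listed hepatocyte markers, 7 were measured and detected in all 20 livers, and the probe of Fgb did not pass the detection filter. Median bead intensity ranged over 195.7 to 271.5 and detected probes over 12268 to 15003 per array. Arrays whose names carry the number 1 or 2 had median detected probes of 12519 and 12910, against 14414 and 13967 for numbers 3 and 4; every group had livers under each number. Marker genes of Kupffer cells, the macrophages of the liver, had positive differences in mutants against wild type for 9 of 9 measured genes (median 0.35 on the log2 scale, 1 called; 2 called in CoQ10-treated mutants against wild type). Markers of cholangiocytes, the bile duct cells, had negative differences for the 2 measured of 6 listed, Sox9 and Krt23 (median -0.92, 1 called). Of these, 1 was detected in all 20 livers. Krt19, Krt7 and Epcam did not pass the detection filter, and Spp1 had no named probe. Neutrophil markers had positive differences in mutants against wild type for the 2 measured of 3 listed (median 0.89, 0 called). In probucol-labelled mutants against wild type their median was 1.19, also with 0 called. Over all tested probes, 0.391% were called in mutants against wild type and 0.437% in CoQ10-treated mutants against wild type. The mean level of the Kupffer cell markers per liver was 9.37 to 9.87 in untreated, 9.40 to 9.71 in probucol-labelled and 9.52 to 10.02 in CoQ10-treated mutants, against 9.16 to 9.47 in wild type. That of the cholangiocyte markers was 7.68 to 8.27, 7.46 to 8.18 and 7.67 to 8.66 in the same mutant groups, against 8.54 to 9.14 in wild type. The median of that of the neutrophil markers was 7.64, 8.12 and 7.40, against 6.45 in wild type, where the highest liver (7.90) lay within the mutant ranges. The part of these cell types in the results below was not tested. In whole-liver RNA, fewer cells of a type and less RNA per cell cannot be told apart.

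All levels below are normalised log2 intensities of a probe, and a difference of 1 is a doubling. Differences come from 1 limma fit over all 20 livers with Benjamini-Hochberg adjustment over the 15096 tested probes, and a probe was called at an adjusted p under 0.05. Intervals are 95% intervals of a single probe without adjustment.

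Of the CoQ synthesis genes, 0 of 15 tested probes were called in any of 8 comparisons, and most differences were small. In the mean of all 3 mutant groups against wild type, the background was 0.391% of tested probes called, and 6 member probes had positive and 9 negative differences, between -0.50 and 0.42. The member median was -0.01, beside -0.0083 over all tested probes. For 14 of the 15 probes the interval lay within 1 log2 unit of 0 on both sides, and for 11 within 0.5. The exception to the wider bound was Coq8a.

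The single comparisons gave the same count of 0. For untreated mutants against wild type, 0.119% of all tested probes were called, and the lowest member adjusted p was 0.529, for Coq7. For probucol-labelled mutants against wild type the background was 0.709% and the lowest member adjusted p 0.193, again for Coq7. For CoQ10-treated mutants against wild type the background was 0.437% and the lowest member adjusted p 0.434. Between mutants, the background was 0.0132% for probucol-labelled against untreated, 0.119% for CoQ10-treated against untreated, 0.0464% for probucol-labelled against CoQ10-treated and 0.179% for CoQ10-treated against the mean of the other 2 groups. The lowest member adjusted p in those 4 comparisons was 0.205, for Coq7 in the last of them.

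Single member probes passed an unadjusted p under 0.05 about as often as probes in general. Against wild type, these were 1 of 15 member probes in untreated mutants (5.5% of all tested probes), 2 of 15 in probucol-labelled mutants (12.3%), 0 of 15 in CoQ10-treated mutants (13.3%) and 1 of 15 in the mean of all mutants (11.6%). Between mutants, these were 0 of 15 for probucol-labelled against untreated (6.1%), 1 of 15 for CoQ10-treated against untreated (9.39%), 2 of 15 for probucol-labelled against CoQ10-treated (9.95%) and 1 of 15 for CoQ10-treated against the other 2 groups (10.8%). For 0 of 15 member probes were the values of 2 groups free of overlap. Over all tested probes that share was 1.56%, 3.13%, 4.61% and 0.199% in the comparisons with wild type, and 0.908%, 1.68%, 1.52% and 0.258% in those between mutants, in the same order.

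**Figure D1:**
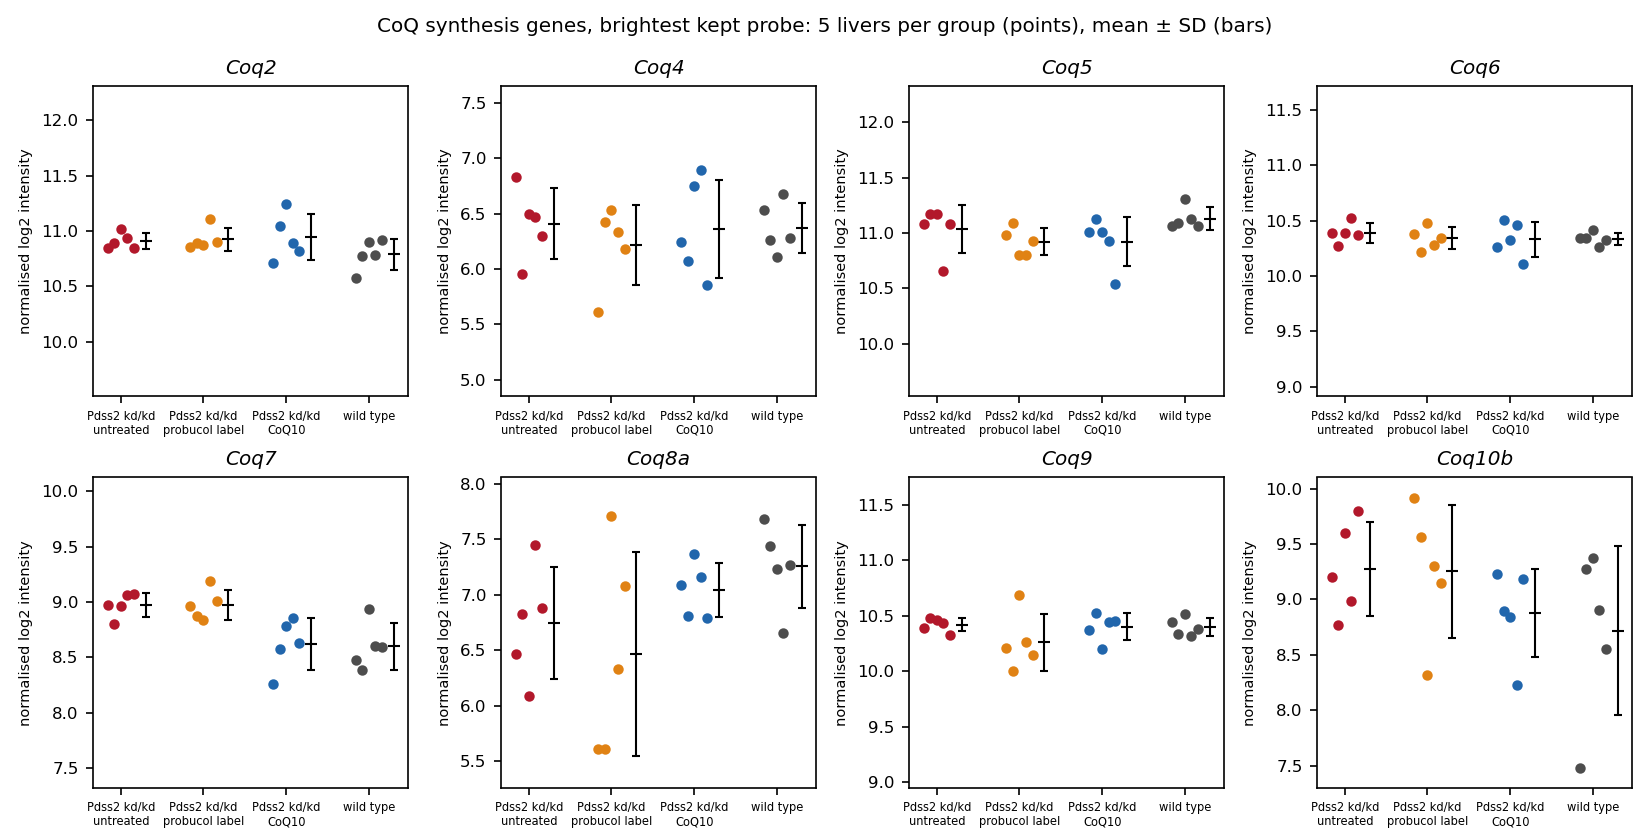
Normalised log2 intensity of the brightest tested probe of 8 CoQ synthesis genes, 1 point per liver, with the mean and SD of each group of 5 as bars. The vertical axes differ in position between genes; Coq6 spans 10.10 to 10.52 over all livers while Coq10b spans 7.48 to 9.92.

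The attachment enzyme Coq2, which joins the tail to the ring, was bright in every liver. Its brighter probe averaged 10.91 ± 0.07 in untreated mutants, 10.92 ± 0.10 in probucol-labelled mutants, 10.94 ± 0.21 in CoQ10-treated mutants and 10.79 ± 0.14 in wild type (SD, n = 5 each). The difference of all mutants from wild type was 0.14 ± 0.09 (SE, interval -0.05 to 0.32, limma adjusted p = 0.614). The dimmer probe differed by 0.23 ± 0.13 (interval -0.04 to 0.51, adjusted p = 0.528). Both probes thus had small positive differences that did not pass the test, and every mutant group overlapped wild type.

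Among the enzymes that modify the ring, Coq7 differed most clearly between groups relative to its spread. COQ7 hydroxylates demethoxy-CoQ late in the pathway. In untreated mutants its probe read 8.97, 8.80, 8.96, 9.07 and 9.08 in livers 1 to 5. In probucol-labelled mutants it read 8.97, 8.87, 8.83, 9.19 and 9.01. In CoQ10-treated mutants the values were 8.26, 8.58, 8.79, 8.86 and 8.63, against 8.47, 8.39, 8.94, 8.61 and 8.60 in wild type. All 10 livers of the first 2 groups stood at 8.80 or above; among CoQ10-treated livers 1 of 5 and among wild-type livers 1 of 5 reached that level, so the groups overlapped through single livers.

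Coq7 averaged 8.98 ± 0.11 in untreated mutants, 8.97 ± 0.14 in probucol-labelled mutants, 8.62 ± 0.23 in CoQ10-treated mutants and 8.60 ± 0.21 in wild type (SD, n = 5 each). The difference between untreated mutants and wild type was 0.38 ± 0.12 (SE, interval 0.12 to 0.63, limma unadjusted p = 0.00661, adjusted p = 0.529). Between probucol-labelled mutants and wild type it was 0.37 ± 0.12 (interval 0.11 to 0.63, adjusted p = 0.193). Both differences had unadjusted intervals clear of 0, and neither was called after adjustment over all tested probes. They share their wild-type livers.

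The Coq7 difference of CoQ10-treated mutants from the mean of the other 2 mutant groups was -0.35 ± 0.11 (SE, interval -0.58 to -0.13, limma unadjusted p = 0.00373, adjusted p = 0.205). Their difference from wild type was 0.02 (interval -0.24 to 0.28), so CoQ10-treated and wild-type livers were close in level and the interval allows a difference of either sign. Probucol-labelled and untreated mutants differed by -0.0024 (interval -0.26 to 0.26). The order of the levels was therefore untreated and probucol-labelled mutants above CoQ10-treated mutants and wild type. Within each pair, the interval of the difference included 0. In limma's moderated F test over all groups, Coq7 had the lowest p of the member probes (0.00524, adjusted p = 0.167), where 0.53% of all tested probes were called.

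Within each of the 4 array numbers, CoQ10-treated livers had the lower Coq7 mean than the other mutants. The differences were -0.71, -0.30, -0.25 and -0.30 for array numbers 1 to 4. Untreated mutants against wild type gave 0.54, -0.06, 0.46 and 0.48. The negative value belongs to array number 2, which holds the wild-type liver with the highest Coq7 level (8.94) and no other wild-type liver. The direction against CoQ10-treated livers was the same under all 4 numbers, each with 5 livers in all. Numbers 1 to 3 each held 1 CoQ10-treated liver and number 4 held 2, so most of these differences rest on 1 such liver. The split uses the same livers that gave the Coq7 difference, so it is a description and adds no support. The share of all tested probes with 1 direction under all 4 numbers was not counted.

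**Figure D2:**
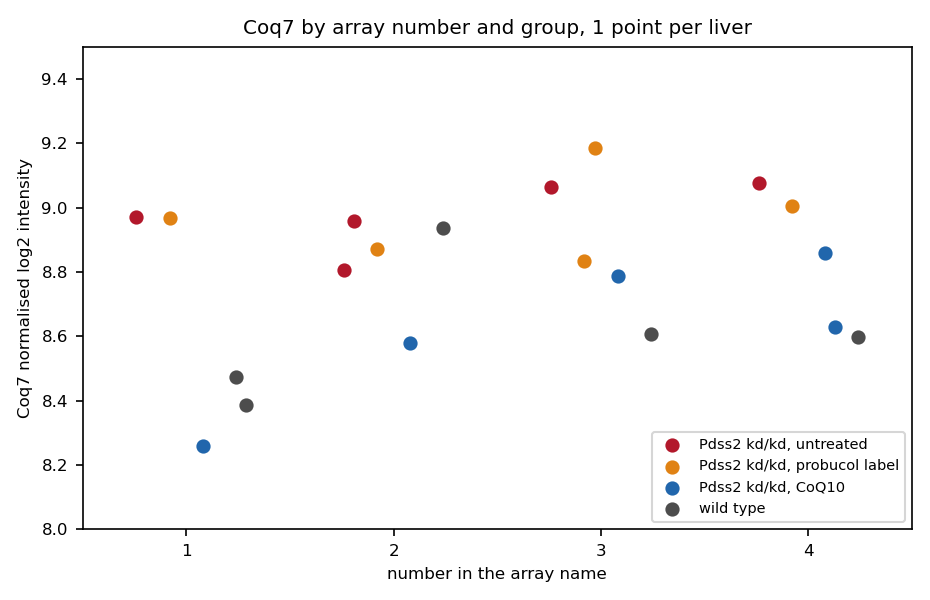
Coq7 level (normalised log2 intensity, vertical axis) by the number in the array name (horizontal axis), 1 point per liver, coloured by group. Untreated and probucol-labelled mutants lie at 8.80 to 9.19 under every array number, and CoQ10-treated livers at 8.26 to 8.86.

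Coq6, a flavin-dependent hydroxylase of the ring, had 3 tested probes. The brightest had the lowest within-group spread of the 15 tested member probes. It averaged 10.39 ± 0.09 in untreated mutants, 10.34 ± 0.10 in probucol-labelled mutants, 10.33 ± 0.16 in CoQ10-treated mutants and 10.34 ± 0.05 in wild type (SD, n = 5 each). The within-group SD was 0.108, and 1% of tested probes had a lower one. All mutants differed from wild type by 0.02 (interval -0.15 to 0.18).

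Coq5, the C-methyltransferase of the ring, had 3 tested probes. The brightest averaged 11.03 ± 0.22 in untreated mutants, 10.92 ± 0.12 in probucol-labelled mutants, 10.92 ± 0.22 in CoQ10-treated mutants and 11.13 ± 0.10 in wild type (SD, n = 5 each), with a difference of all mutants from wild type of -0.17 ± 0.10 (SE, limma adjusted p = 0.562). The second probe read 9.12 ± 0.16 in probucol-labelled and 9.37 ± 0.22 in CoQ10-treated mutants (SD, n = 5 each), a difference of -0.26 ± 0.12 (SE, limma unadjusted p = 0.0473, adjusted p = 0.495). These 2 probes moved together over the 20 livers (r = 0.67). The dimmest probe did not track them (r = -0.06 with the brightest and -0.31 with the second), so the gene's probes disagree, and Coq5 values from its brightest probe in the pairwise comparisons below hold for that probe.

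Coq4, needed to process the ring's carboxyl position, and Coq3, the O-methyltransferase, were near the limit of detection. The tested Coq4 probe was detected in 15 of 20 livers and ranged over 5.61 to 6.89; all mutants differed from wild type by -0.04 (interval -0.39 to 0.31). Its other probe was detected in 3 livers, all CoQ10-treated, and did not pass the filter. That probe averaged 6.25 in CoQ10-treated mutants, against 5.99 in untreated mutants, 5.97 in probucol-labelled mutants and 5.90 in wild type. Without the filter, a Coq4 probe had the lowest member p in CoQ10-treated mutants against wild type (limma adjusted p = 0.395). The 2 Coq3 probes were detected in 4 and 2 of 20 livers and were not tested; at a detection p under 0.01, a limit chosen after seeing the data, they were detected in 2 and 0 livers. A group difference in Coq3 was not detectable with this array.

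Coq9 encodes a lipid-binding partner of COQ7. Its probe averaged 10.42 ± 0.06 in untreated mutants, 10.26 ± 0.26 in probucol-labelled mutants, 10.40 ± 0.12 in CoQ10-treated mutants and 10.40 ± 0.08 in wild type (SD, n = 5 each). All mutants differed from wild type by -0.04 (interval -0.23 to 0.15), and CoQ10-treated from the other mutants by 0.06 (interval -0.14 to 0.26). Its deviations from the group means correlated with those of Coq7 at r = -0.05 over the 20 livers.

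**Figure D3:**
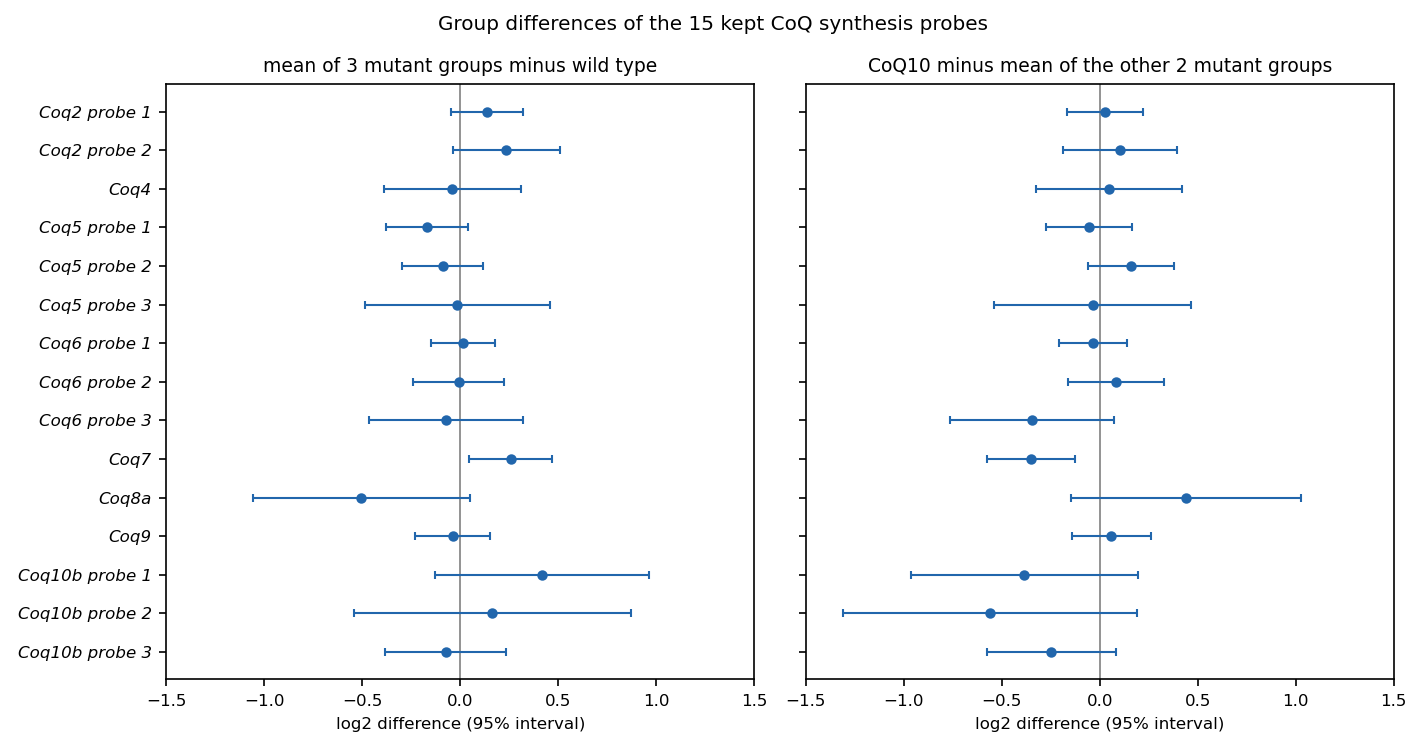
Log2 differences of the 15 tested member probes with 95% intervals (horizontal axis), for the mean of the 3 mutant groups minus wild type (left) and CoQ10-treated mutants minus the mean of the other 2 mutant groups (right). Coq7 has an interval clear of 0 in both panels (0.05 to 0.47 and -0.58 to -0.13) and was not called in either after adjustment.

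Coq8a, the kinase-like supporting protein, had mutant group means below that of wild type that did not pass the test, and varied widely. It read 6.47, 6.83, 6.09, 7.45 and 6.89 in untreated mutants. It read 5.61, 5.61, 7.71, 6.33 and 7.08 in probucol-labelled mutants. It read 7.09, 6.81, 7.37, 7.16 and 6.79 in CoQ10-treated mutants, against 7.68, 7.44, 7.23, 6.66 and 7.27 in wild type. The low values came from a few untreated and probucol-labelled livers, and 1 probucol-labelled liver had the highest value of all 20.

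The probe was detected in 17 of 20 livers, with the 3 undetected livers among untreated (1) and probucol-labelled (2) mutants, so their values are near background. Probucol-labelled mutants differed from wild type by -0.79 ± 0.33 (SE, interval -1.47 to -0.11, limma unadjusted p = 0.0246, adjusted p = 0.312). Without probucol-labelled liver 3 the difference was -1.10 (adjusted p = 0.0786), the lowest adjusted p of any member in any alternative. The difference was smaller in other settings, with -0.26 in the authors' log2 values, -0.29 without background correction, -0.51 with groups by array name and -0.57 without probucol-labelled liver 1 or 2, and the unadjusted p was under 0.05 in 24 of 30. All mutants differed from wild type by -0.50 ± 0.27 (interval -1.06 to 0.05, adjusted p = 0.491). Within array numbers 1 to 4 the probucol-labelled difference was -1.95, -1.62, 0.36 and -0.19, so its direction was not the same under all numbers, and the larger values stood under the numbers with fewer detected probes.

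Coq10b, the lipid-binding protein, was the member with the largest range. Its brightest probe read 9.21, 8.77, 9.60, 8.99 and 9.80 in untreated mutants. It read 9.92, 9.56, 8.32, 9.30 and 9.15 in probucol-labelled mutants. It read 9.23, 8.90, 8.84, 8.23 and 9.19 in CoQ10-treated mutants, against 7.48, 9.28, 9.37, 8.91 and 8.55 in wild type. The spread within each group was as wide as the distance between groups, and the lowest liver was wild type.

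All mutants differed from wild type in Coq10b by 0.42 ± 0.26 (SE, interval -0.13 to 0.96, limma adjusted p = 0.604). Without wild-type liver 1, the lowest liver, it was 0.11 (interval -0.38 to 0.60). The second probe gave 0.16 (interval -0.54 to 0.87), and -0.28 (interval -0.87 to 0.30) without that liver, which also had its lowest value there (6.50). This probe followed the first over the 20 livers (r = 0.77). Another tested probe was detected in 5 of 20 livers and the other 2 in 0. The within-group SD of the 2 bright probes was 0.565 and 0.740, and 96.4% and 98.9% of tested probes had a lower one, as did 96.6% for Coq8a. Over all 15 member probes the median SD was 0.258, beside 0.259 over all tested probes.

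The tested gene with the pattern most like that of Coq10b was Per1, a core gene of the circadian clock (r = 0.77 over 20 livers, and 0.89 for deviations from the group means). The likeness was sought over all tested probes, so it is given as a description. With the brighter Per1 probe the deviations correlated at r = 0.80 (Spearman 0.66), and at 0.56 (Spearman 0.53) without the 2 livers farthest from the Per1 median, wild-type liver 1 and probucol-labelled liver 3. The sources used here give no time of day for the collection of the livers.

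A list of 16 clock genes, written after this likeness was seen, had 13 measured genes, and these are given with both bright Coq10b probes. Without Per1, which prompted the list, 9 of 12 had positive correlations with the brightest Coq10b probe in the same deviations and 6 were over 0.5. With the second probe, a choice made after seeing the data, 10 of 12 were positive and 1 was over 0.5, Nr1d2 (0.60, and 0.79 with the brightest). The other output and repressor genes with a positive r for the brightest probe were Ciart (0.64), Tef (0.62), Bhlhe40 (0.62), Dbp (0.60), Nr1d1 (0.52), Hlf (0.49) and Per2 (0.45), and with the second probe they lay between 0.01 and 0.46. The repressor Cry2 was at -0.35 with the brightest and 0.08 with the second probe. Of the activator genes, Arntl was at -0.59 and -0.42, Npas2 at -0.61 and -0.26, and Clock at 0.11 and 0.20. The likeness to clock genes was thus weaker for the second probe. Output and repressor genes all had a positive r with the second probe, some near 0, and all but Cry2 with the brightest. Activators had both signs with each probe. All points share the same 20 livers and arrays. The share of all tested probes with such correlations to Coq10b was not counted, so these counts have no background to compare with. For clock genes other than Per1, the correlations were not recomputed without the livers farthest from the Per1 median. Per1 itself was not called in any of the 8 comparisons (difference of all mutants from wild type -0.47 ± 0.54, SE, limma adjusted p = 0.826).

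**Figure D4:**
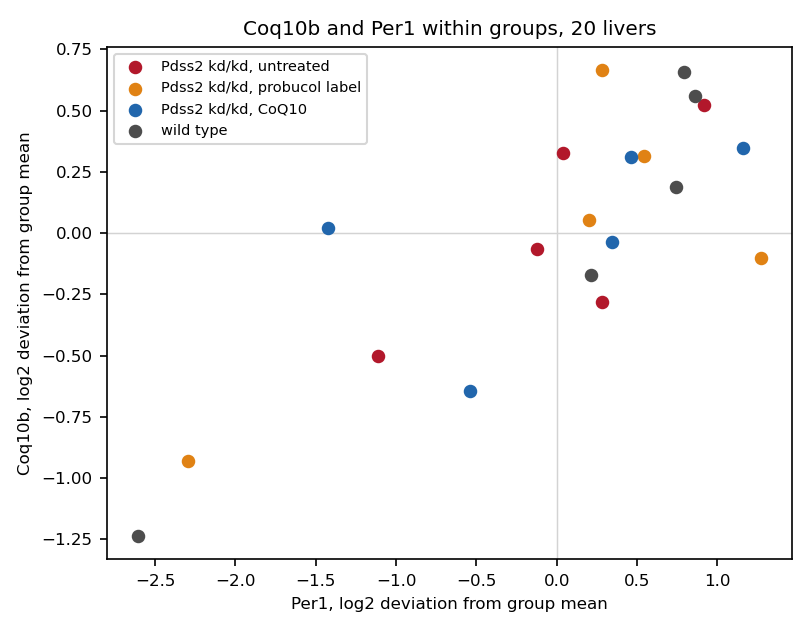
Deviation from the group mean of Coq10b (vertical axis) against that of the brighter Per1 probe (horizontal axis), both in log2 intensity, 1 point per liver for 20 livers coloured by group. Wild-type liver 1 and probucol-labelled liver 3 lie far to the lower left, and r is 0.80 with them and 0.56 without them.

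The promoter of Coq10b is shown because of the likeness of its brightest probe to clock genes, many of which carry the E-box CACGTG. Any part of an E-box in that likeness was not tested. The window is the 250 bases before the gene's start, chr1:55052520-55052769 on the plus strand of GRCm38.p6 (RefSeq), written 5′ to 3′, with the match in capitals.

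Coq10b: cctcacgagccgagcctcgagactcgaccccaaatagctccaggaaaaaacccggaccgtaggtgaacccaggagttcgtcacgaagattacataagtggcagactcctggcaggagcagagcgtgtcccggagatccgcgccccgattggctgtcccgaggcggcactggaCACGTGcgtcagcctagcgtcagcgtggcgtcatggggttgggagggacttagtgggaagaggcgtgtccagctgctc

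The match starts 78 bases before the gene's start, in a window with 62.0% G and C. It is a match of letters and not an observed binding site. Such a match occurred in 6.02% of 32851 mouse promoter windows of the same length, and in Coq4 and Coq10b among the 9 listed genes with a window, which include Pdss1 and leave out Coq5. Windows of the 9 genes were also searched on both strands for CCGGAAG (GABPA, found in 6.91% of all windows), TCAAGGTCA (ERR, 0.387%), TGACGTCA (CRE, 1.55%) and the NRF1 motif (3.74%), with 0 matches.

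The members did not move as a block across livers. Taking the brightest tested probe of each of 8 genes and deviations from the group means, the 28 pairs had a median r of 0.11, and 15 were positive. The highest was Coq2 with Coq7, at r = 0.58 (Spearman 0.41), and 0.41 (Spearman 0.23) without the 2 livers farthest from the Coq2 median. The lowest was Coq8a with Coq10b, at -0.60 (Spearman -0.55), and -0.42 (Spearman -0.38) without the 2 livers farthest from the Coq8a median. Coq8a and Coq9 correlated at 0.47 and Coq6 and Coq9 at 0.46. All pairs share their arrays.

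**Figure D5:**
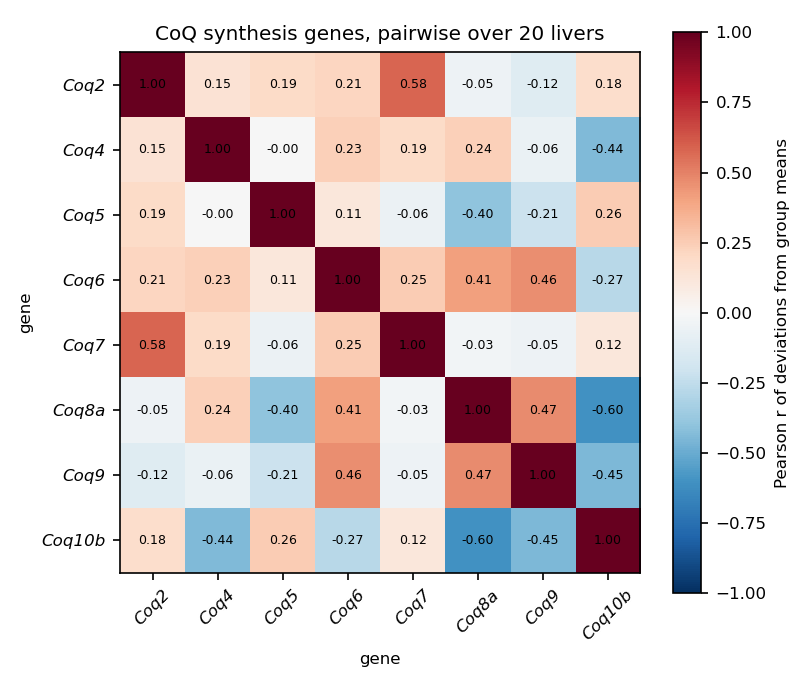
Pearson r between the brightest tested probes of 8 CoQ synthesis genes, over the deviations of 20 livers from their group means. Most cells are pale; Coq2 with Coq7 (0.58) and Coq8a with Coq10b (-0.60) are the extremes.

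For the other members, the tested probe of another gene with the highest r over the 20 livers was Pdzk1ip1 for Coq2 (0.78), Ndufaf3 for Coq4 (0.76), Wrn for Coq5 (0.86), Arfrp1 for Coq6 (0.79), Tceal8 for Coq7 (0.83), Mif4gd for Coq8a (0.82) and Akr1a1 for Coq9 (0.73). Each was the highest among all other tested genes. For Tceal8 and Coq7 the r of deviations from the group means was 0.63, lower than with the groups left in.

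Of 29 other genes of CoQ synthesis and handling, 18 were measured, and 0 were called in 7 of the 8 comparisons. The exception was 1 gene lower in probucol-labelled mutants against wild type, Adck5, a little-studied relative of Coq8a. It read 8.77, 8.41, 8.82, 8.23 and 8.21 in probucol-labelled mutants, against 9.28, 8.90, 8.93, 9.20 and 9.24 in wild type. The groups did not overlap, as for 3.13% of all tested probes, and the difference was -0.62 ± 0.13 (SE, limma adjusted p = 0.0279). With untreated and probucol livers exchanged by array name the difference was -0.11 (adjusted p = 0.999), and the call was lost under 9 of 31 alternatives. Among these were the fits without wild-type liver 1, 2, 4 or 5 or without probucol-labelled liver 2 or 4. Their adjusted p lay between 0.0532 and 0.115. In the main fit, Adck5 of probucol-labelled mutants also differed from CoQ10-treated mutants by -0.68 ± 0.13 (SE, limma adjusted p = 0.0505). From untreated mutants it differed by -0.51 ± 0.13 (adjusted p = 0.323), and neither difference was called.

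Coq8b, the close paralogue of Coq8a, averaged 8.32 ± 0.37 in probucol-labelled mutants, 7.61 ± 0.17 in untreated mutants and 7.66 ± 0.30 in wild type (SD, n = 5 each). It differed by 0.71 ± 0.17 between probucol-labelled and untreated mutants (SE, limma adjusted p = 0.223) and by 0.66 between probucol-labelled mutants and wild type (adjusted p = 0.0661), neither past the threshold. Pptc7, a mitochondrial phosphatase linked to CoQ synthesis, read 9.92, 10.12, 9.97, 9.74 and 8.88 in CoQ10-treated mutants, against 9.96, 10.62, 11.09, 10.63 and 10.41 in wild type. Its CoQ10-treated livers averaged 9.73 ± 0.49 (SD, n = 5) and differed from untreated mutants by -0.90 ± 0.24 (SE, limma adjusted p = 0.160) and from wild type by -0.82 (adjusted p = 0.122). Probucol-labelled livers averaged 10.08 ± 0.33 (SD, n = 5). They differed from untreated mutants by -0.54 (limma adjusted p = 0.747), from wild type by -0.46 (adjusted p = 0.454) and from CoQ10-treated mutants by 0.36 (adjusted p = 0.664).

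The genes that supply the isoprenoid tail precursor, of the mevalonate pathway, were measured for 5 of 9. All 5 had positive differences in the mean of all mutants against wild type (median 0.29, -0.0083 over all tested probes), and 0 were called. By group against wild type the median was 0.34 in untreated, 0.38 in probucol-labelled and 0.09 in CoQ10-treated mutants, where 4 of 5 were positive. In the mean of all mutants, Mvd, the decarboxylase of that pathway, was at 0.59 ± 0.34 (SE, limma adjusted p = 0.562). The brighter probe of Fdps, which makes farnesyl diphosphate, was at 0.35 ± 0.21 (adjusted p = 0.576) and its other probe at 0.74 ± 0.38 (adjusted p = 0.480). Pmvk was at 0.29, Idi1 at 0.19 and Mvk at 0.09. A reference list of general mitochondrial genes, 9 of 12 measured, had a median of -0.02 with 0 called. These 9 genes thus had differences near 0 on balance in the same livers.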

How the data were processed

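Groups were taken from the treatment and source labels. The authors deposited linear bead intensities per probe, without background subtraction or normalisation judged from the values, and beside each a detection p-value column; per the file headers it is a p, but its values rise with intensity (rank correlation 0.990 to 0.996), so 1 minus it was used. A second deposited table held the authors' log2 values, which served as an alternative. The scanner software was not named in the labels. Intensities were corrected by normexp (offset 16), quantile-normalised and log2-transformed, and fitted with limma 3.58.1 in R 4.3.3 (4 group means, 20 arrays). Fits were tested on simulated data. Probes were named from the platform annotation, with 1 symbol for 34885 of 45281. The members and lists were chosen with earlier results of these data known. Named were all members, the 1 most similar gene of each, and pathway genes that were called or had the smallest p. Mvd, Fdps, Pmvk, Idi1 and Mvk were named after their values were seen. Nothing says more of the replicates than separate mice. The number of arrays limits the precision. Alternatives were offsets, background correction, scaling, filters, blocks, exchanged labels and leaving out single livers.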

Additional observations from a re-analysis of the deposited data

Results flagged for a closer look

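Of 60 groups of 5 livers (15 probes in 4 groups) 3 held a liver whose gap to its nearest neighbour exceeded Dixon's limit of 0.71 of the group's range, where chance gives about 1 in 20. The brighter Coq2 probe read 11.11 in probucol-labelled liver 4, against 10.90 in the nearest liver of its group. The brightest Coq5 probe read 10.65 in untreated liver 4, against 11.08 in the nearest. The same probe read 11.31 in wild-type liver 3, against 11.12 in the nearest.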

How the results depend on the processing

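The count of called member probes was 0 in all 9 tests under every alternative run (31 each, and 30 for the F test). The Coq7 difference of CoQ10-treated mutants from the other mutants lay between -0.44 and -0.24 over the other settings and between -0.41 and -0.26 when single livers were left out, with limma adjusted p between 0.143 and 1.00 and an unadjusted p under 0.05 in 30 of 31. With the replicate number as a block it was -0.35 (adjusted p = 0.156). The labels do not say that a replicate number marks a shared batch, and not every same-numbered pair of livers correlated over 0.1, so the numbers were not taken as pairs. Same-numbered livers of different groups had a median r of 0.13 with 17 of 30 over 0.1, against -0.05 with 37 of 120 for different numbers, so they were somewhat more alike. Livers of different groups that shared an array number had a median r of 0.12 with 22 of 36 over 0.1. Replicate numbers largely follow array numbers, so the 2 cannot be told apart here. Counts over all probes moved more. For all mutants against wild type they were 59, with 11 under median scaling and 144 with array number as a block, and 17 to 127 when single livers were left out. For CoQ10-treated mutants against wild type they were 66, with 9 and 316 at the same settings and 22 to 100. For probucol-labelled mutants against wild type 107 became 9 under median scaling, 143 without background correction and 16 to 268 without single livers, and for untreated mutants against wild type 18 became 107 with groups by array name. For CoQ10-treated mutants against the other mutants 27 became 8 under median scaling, 42 with the replicate block and 7 to 61 without single livers. The other counts were 18 for CoQ10-treated against untreated mutants (7 to 30 over the other settings, 11 to 37 without single livers), 7 for probucol-labelled against CoQ10-treated (0 to 24, 2 to 65), 2 for probucol-labelled against untreated (0 to 5, 1 to 7) and 80 for the F test (14 to 125, 42 to 180). The causes were not tested. Adck5 lost its call under median scaling (adjusted p = 0.784), in a fit of only the groups compared (0.112) and without single livers (up to 0.115). Probes near background, those of Coq3, Coq4 and Coq8a, limit what these arrays can show.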
